A study of Rana pirica with 9 samples.

Results

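Muscle and keratin genes were examined in dissected brains of tadpoles. The members are the probe sets of the series' value table whose platform annotation gives 1 gene symbol of certain families. These are keratins, myosin heavy and light chains, troponins, tropomyosins, alpha-actinins, calsequestrins and the creatine kinases with symbols that begin with ckm. Also included are the skeletal actin acta1, the heart actin actc1 and desmin, des. They number 92 of 15611 probe sets, from 52 of 6485 named genes, with 63 muscle probe sets from 34 genes and 29 keratin probe sets from 18 genes. No probe set with a single symbol carried actc1 or des. The rule works on symbols alone and uses no measured value.

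The tadpoles were of Rana pirica, a brown frog, and had not grown hind limbs. In the salamander group (3 samples) they were kept for 8 days with larval salamanders, which prey on tadpoles, and in the control group (6 samples) for 8 days without a predator. Each sample pooled the brains of 10 tadpoles, and the labels give the samples within a group as biological replicates. All 9 samples were labelled with biotin and hybridised to Affymetrix arrays designed for the clawed frog Xenopus, so the probes were made for another frog than the one measured. Gene names below are those of the Xenopus probe sets.

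Striated muscle contracts when myosin heads pull on actin filaments. Calcium released from stores held by calsequestrin binds troponin, which moves tropomyosin off the myosin sites of actin, while alpha-actinin anchors the actin filaments and creatine kinase recharges ATP. Several members of these families are not limited to striated muscle: the non-muscle myosins myh9 and myh10, their light chains myl6, myl9 and myl12b, the actinins actn1 and actn4, several tropomyosins and the creatine kinase ckmt1b, which brain also makes. Keratins are the intermediate filaments of epithelia, where an acidic keratin pairs with a basic one, as krt18 does with krt8 in simple epithelia. Muscle of the head and skin lie close to a tadpole's brain, and transcripts made only there can serve as readings of tissue left on a dissected brain.

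Values are log2 signals in which the median of the 6 control arrays is 0 for every probe set, so they show differences between arrays but no level. A control median is therefore not repeated below; a probe set's controls are given by their lowest and highest value. A partial reading of level was taken from rounding: a value finer than the rounding allows for log2 signals of 8 or more is marked, and called weak below, as the signal or the control median behind it must have been lower. Probe sets with at most 1 marked value of 9 are called bright, and they made up 47.3% of the 15491 probe sets tested. Weak signals can escape the mark, which makes bright a rough label. Marks on the salamander arrays count as well, so the label depends in part on the values compared between the groups.

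Median values of the arrays lay between -0.01 and 0.01. The poly-A spike-in RNAs, which are added to the samples in known amounts before labelling, separated the arrays into a set with high values (controls 2, 3 and 4 and salamander 1 and 2, 1.04 to 1.60) and a set with low values (controls 1, 5 and 6 and salamander 3, -2.04 to -1.54). For the group means and each member described array by array, the difference within the high set and within the low set is also given, the latter always resting on salamander array 3. Over all tested probe sets, deviations of a control array from its group mean correlated with those of a salamander array at -0.017 to 0.016 in the 18 pairs.

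The mean of the 63 muscle probe sets was 0.08 ± 0.05 (SD, n = 3) in the salamander group and -0.02 ± 0.08 (SD, n = 6) in the controls, a difference of 0.10 on the log2 scale. The salamander arrays stood at 0.04, 0.07 and 0.13, and the controls at 0.01, -0.03, -0.13, 0.11, -0.04 and -0.01 in order of replicate number. Only salamander array 3 was above every control, and the groups overlapped. Within the high spike-in set the difference was 0.07, and within the low set, where salamander array 3 is the only one of its group, 0.15. It came to 0.18 with the median over members in place of the mean. Over the 24 bright muscle probe sets it was also 0.18, with salamander values of 0.28, 0.03 and -0.06 against -0.25 to 0.01, and it was 0.25 within the high but 0.03 within the low set. The bright label can drop a probe set for low values on the salamander arrays alone. Whether the difference stays with a label taken from the controls only was not tested. In a pooled brain sample, fewer cells of a kind and less RNA per cell cannot be told apart.

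The 41 probe sets of genes listed here as striated muscle genes were averaged on each array. Whether brain also makes some of their transcripts was not tested. The mean was 0.13 ± 0.04 (SD, n = 3) in the salamander group against -0.03 ± 0.11 (SD, n = 6), a difference of 0.16. The salamander arrays were at 0.15, 0.16 and 0.08 and the controls ran from -0.22 to 0.10, so that salamander arrays 1 and 2 lay above every control and array 3 within them. Within the high set the difference was 0.20 and within the low set 0.09. Over the 14 bright ones the difference was 0.05, with salamander values of 0.13, -0.02 and -0.36 against -0.38 to 0.06, and it was 0.18 within the high and -0.23 within the low set. The 22 probe sets of genes not limited to striated muscle differed by -0.02, with salamander values of -0.16, -0.10 and 0.23 against -0.08 to 0.12. Salamander arrays 1 and 2 lay below every control and array 3 above them, and the difference was -0.16 within the high and 0.25 within the low set.

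The mean of the 29 keratin probe sets was -0.35 ± 0.17 (SD, n = 3) in the salamander group and -0.10 ± 0.25 (SD, n = 6) in the controls, a difference of -0.25. The salamander arrays stood at -0.34, -0.51 and -0.18. The controls stood at -0.08, -0.49, -0.08, -0.01, 0.27 and -0.20 in order of replicate number. Only salamander array 2 was below every control, and control array 2 came close to it. The difference was -0.23 within the high and -0.18 within the low spike-in set. Over the 6 bright keratin probe sets it was -0.18, with salamander values of -0.44, -0.58 and -0.36 against -0.90 to 0.29, all within the controls. Among these bright ones it was -0.07 within the high and -0.25 within the low set. No test was made on any of these means, because the members were chosen with results of these data known.

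**Figure D1:**
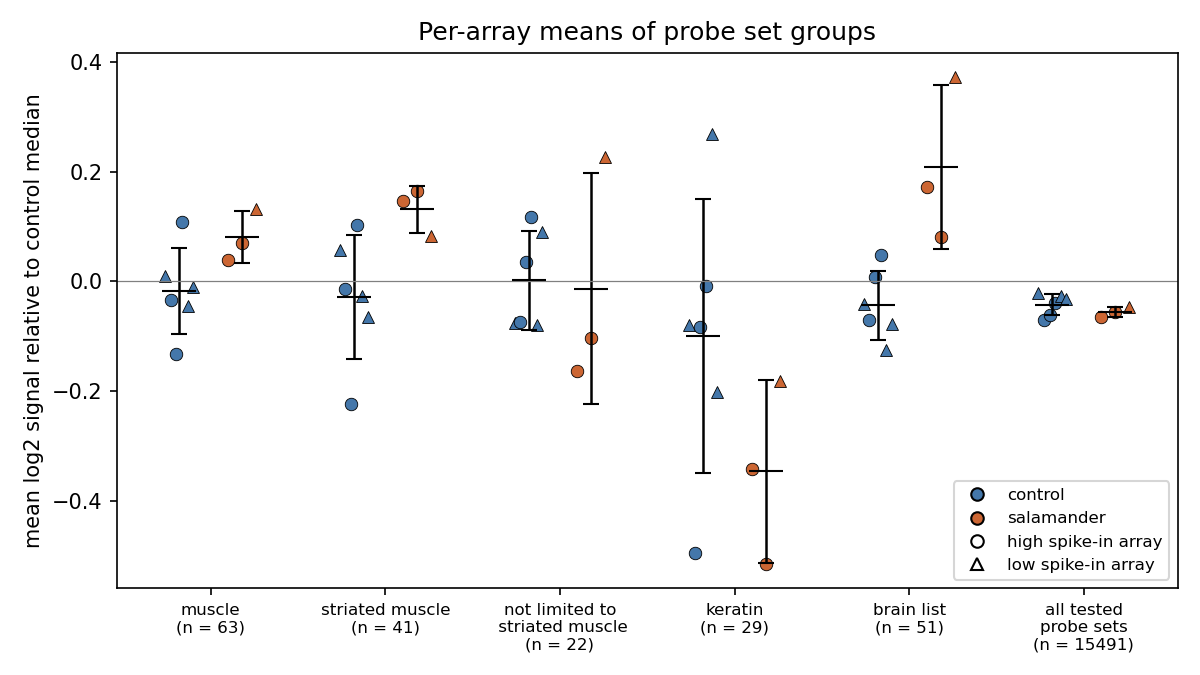
Mean log2 signal relative to the control median (vertical axis) of each group of probe sets on each of the 9 arrays; blue points are controls and orange points salamander arrays, circles are high and triangles low spike-in arrays, and black bars give the group mean and SD. Muscle, keratin and all-probe-set values overlap between the groups, and keratin controls span -0.49 to 0.27.

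Brain genes, set beside them from a list of 49, had a mean of 0.17, 0.08 and 0.37 on the salamander arrays against -0.13 to 0.05 on the controls over 51 probe sets, so that all 3 salamander arrays lay above all controls. The list was chosen with results of these data known and holds ina, a neuronal intermediate filament gene. Higher values of ina on the salamander arrays were among those results. In the fit used here its limma adjusted p was 0.734. Without ina the salamander values were 0.10, 0.02 and 0.33 against -0.12 to 0.06, and 2 of 3 lay above all controls. The difference of 0.25 over all 51 was 0.13 within the high and 0.45 within the low spike-in set, the latter again from salamander array 3. Without ina the difference was 0.20, with 0.07 within the high and 0.42 within the low set.

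Weak-signal marks set the members apart from each other. Of the 63 muscle probe sets 24, or 38.1%, were bright, of the 29 keratin probe sets 6, or 20.7%, and of the 51 brain probe sets 32, or 62.7%, against 47.3% of all. A probe set without any marked value was found 19 times among muscle members (30.2%) and 1 time among keratins (3.45%, krt61), against 29.0% of all. Among muscle families, 8 of 12 troponin and 4 of 5 creatine kinase probe sets were bright, but 2 of 16 myosin heavy chain probe sets and 0 of 2 calsequestrin probe sets. Bright muscle members varied less between replicate arrays, with a median residual SD of 0.51, than bright probe sets in general, with 0.80. Bright brain probe sets had 0.65. The bright sets were not alike in their marks, as 79.2% of bright muscle members had no marked value against 61.3% of all bright probe sets. Bright keratins had a median residual SD of 1.32, and 1 of the 6, or 16.7%, had no marked value. Keratins that were not bright had a lower median residual SD of 1.09.

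**Figure D2:**
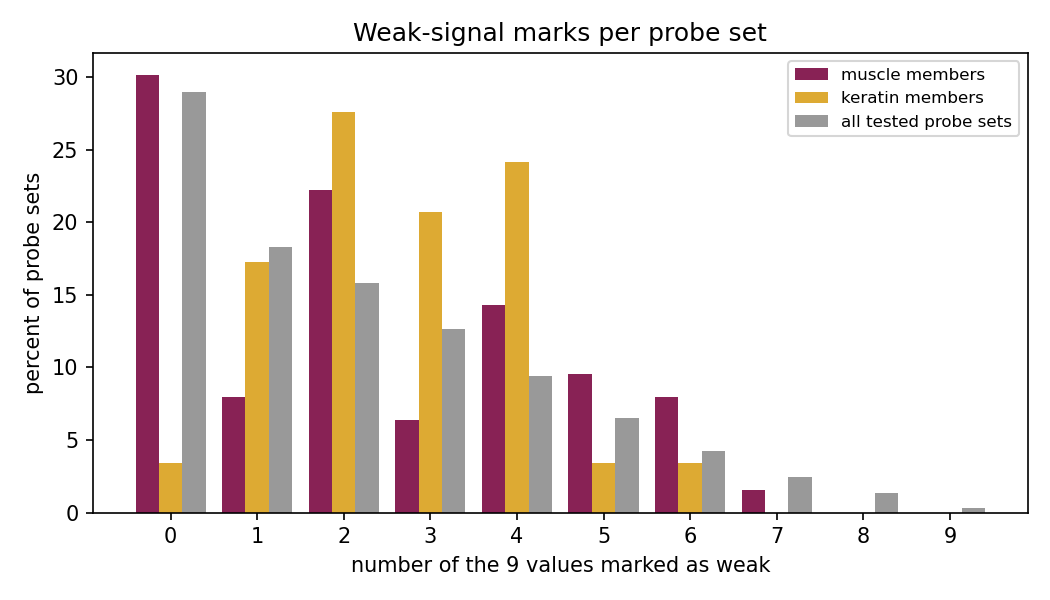
Percent of probe sets (vertical axis) with a given number of their 9 values marked as weak (horizontal axis), for the 63 muscle members, the 29 keratin members and all 15491 tested probe sets. Muscle members without a mark make up 30.2%, close to 29.0% of all, whereas keratins without a mark make up 3.45%.

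The comparison of single probe sets asked which members differed between tadpoles kept with salamanders and controls. In limma, 0 of 92 members passed at an adjusted p under 0.05, where the same fit called 0.0% of all 15491 probe sets. Their smallest adjusted p was 0.798. An unadjusted p under 0.05 was reached by 5 members, 1 higher and 4 lower, or 5.43%, against 5.15% of all (2.12% higher and 3.03% lower). In 3 members, or 3.26%, the salamander arrays lay wholly outside the controls, against 2.33% of all; they were krt55 and myl6 above (1.09% of all) and krt17 below (1.24% of all). Over all 92 members both shares lie near the background. By group, an unadjusted limma p under 0.05 was reached by 3 of 29 keratins (10.3%) and 2 of 63 muscle members (3.17%), against 5.15% of all. Groups did not overlap in 2 keratins (6.90%) and 1 muscle member (1.59%), against 2.33% of all. Of the 30 bright members, 0 had an unadjusted limma p under 0.05, against 3.70% of all bright probe sets. At so low a share, 0 of 30 does not set the bright members apart. The 5 members with such a p had 3 to 6 marked values. Among them, myl12b Xl.337.1.S1_at had its 3 marks on the salamander arrays alone.

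Differences were centred near 0. Of the 92 members 47 were positive and 45 negative, with a median of 0.01 against 0.00 for all probe sets. Muscle members had 37 positive of 63 and a median of 0.14, keratins 10 positive of 29 and a median of -0.22. The 95% confidence interval excluded a 4-fold difference either way for 50 of 92 members, or 54.3%, against 54.6% of all. It excluded a 2-fold difference for 2 members, or 2.17%, against 2.78% of all. These were tnni1 and a probe set of the troponin C gene tnnc1 (Xl.2228.2.S1_at), the latter with 2 marked values. The other tnnc1 probe set, Xl.2228.1.S1_at, had 0 marked values and an interval of -1.82 to 1.41, which did not exclude a 2-fold difference.

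**Figure D3:**
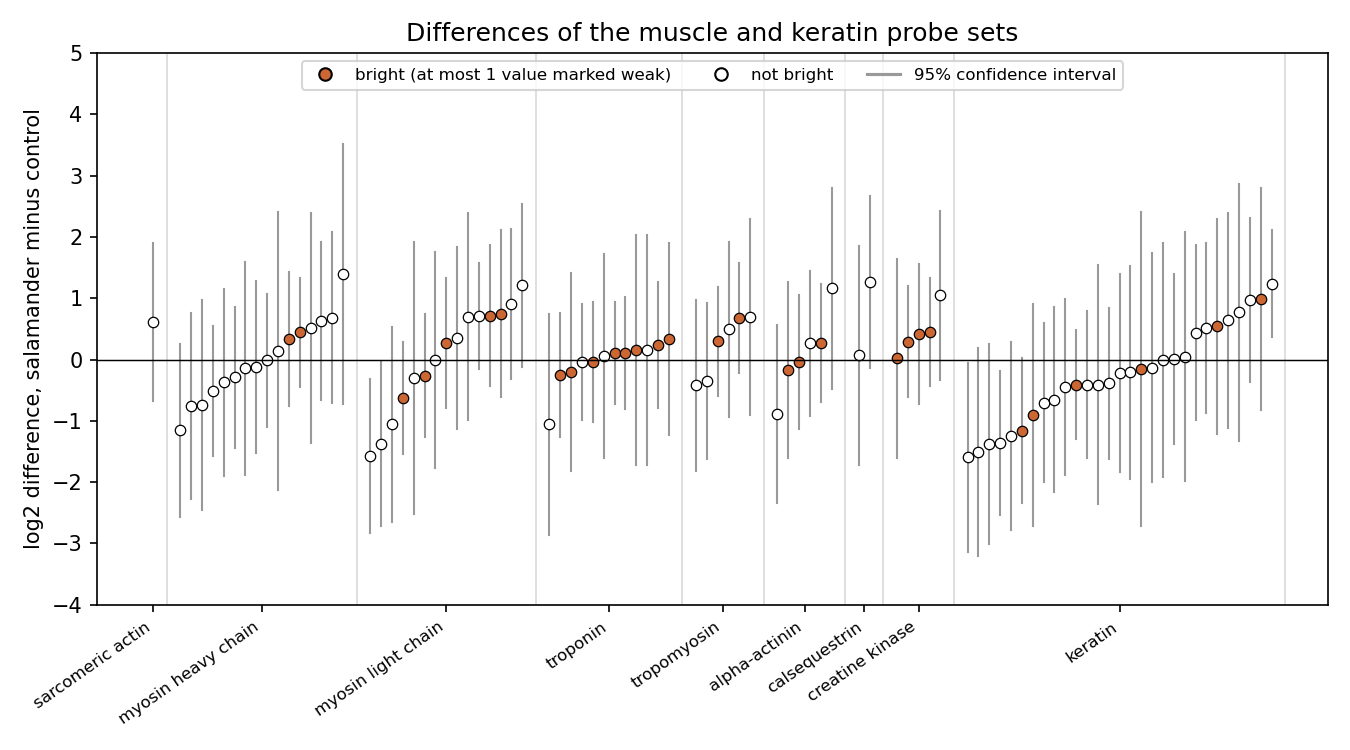
Difference between salamander and control groups on the log2 scale (vertical axis) for each of the 92 members, ordered by size within each gene family; filled points are bright probe sets, open points the others, and grey lines are limma's 95% confidence intervals. Differences run from -1.60 to 1.40 and the bright muscle members from -0.62 to 0.75.

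The skeletal actin gene acta1 (Xl.24699.1.S1_at), whose product is the thin filament of skeletal muscle, stood at 0.43, 0.38 and 0.18 on the salamander arrays against -1.83 to 0.64 on the controls. All 3 salamander values lay inside the control range. The difference was 0.61 (SE 0.59, interval -0.67 to 1.90), and it was 0.30 without control array 1, the lowest control. It was 0.64 within the high and 0.51 within the low set.

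Of the 16 myosin heavy chain probe sets 7 were positive, with a median of -0.07 and differences from -1.16 to 1.40. These extremes belonged to the same gene, myh6, a myosin of heart muscle. Its probe set Xl.3161.1.A1_at was at -1.60, -1.58 and -0.46 on the salamander arrays against -1.73 to 1.30, a difference of -1.16 (SE 0.65) that was -2.35 within the high set and turned to 0.41 within the low. Its probe set Xl.5188.1.A2_at was at 2.27, -0.82 and 2.38 against -1.78 to 2.39, a difference of 1.40 (SE 0.97) that was 2.45 without salamander array 2 and 0.85 without array 3. It was 0.60 within the high and 2.75 within the low set. Salamander array 2 thus lay low where arrays 1 and 3 lay at the top of the controls. The 5 myh6 probe sets therefore held both signs, and the only bright one, Xl.5188.1.A2_a_at, was at 0.45. The 3 probe sets of myh15 were at -0.51 to -0.14, those of myh8, a myosin of developing and some specialised skeletal muscle in mammals, at -0.76 to 0.68, and the embryonic myosin myh3 at 0.14. The smooth muscle myosin myh11 was at -0.74, and the non-muscle myosins myh9 at -0.12 and myh10 at -0.37 and 0.33.

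Of the 15 myosin light chain probe sets 8 were positive, and differences ran from -1.57 to 1.21. The lowest p-values belonged to myl12b, a regulatory light chain of non-muscle myosin. Its probe set Xl.337.1.S1_at was at -2.65, -1.36 and -1.74 on the salamander arrays against -1.89 to 0.30, a difference of -1.57 (SE 0.57, limma adjusted p = 0.866). Control array 6 at -1.89 lay among the salamander values and the other 5 controls above them. A second probe set, Xl.15939.1.A1_at, was at -1.33, -1.15 and -1.72 against -1.22 to 1.49, a difference of -1.38 (SE 0.61, limma adjusted p = 0.945), and here salamander arrays 1 and 3 lay below every control. The other 2 probe sets of myl12b stood at -0.01 and 0.72, the latter the only bright one of the 4. Within the high and the low set the difference was -1.77 and -1.28 for Xl.337.1.S1_at and -1.09 and -1.83 for Xl.15939.1.A1_at. Values were marked as weak on all 3 salamander arrays and 0 controls for Xl.337.1.S1_at.

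The light chain gene myl6 (Xl.5516.1.S1_a_at), made in many tissues, is described because its groups did not overlap, and was chosen after its values were seen. It stood at 0.68, 0.80 and 0.87 on the salamander arrays against -0.21 to 0.52 on the controls. The difference was 0.71 (SE 0.40, interval -0.15 to 1.58), with a limma adjusted p of 0.977 and a range of 0.66 to 0.80 when 1 array was left out. It was 0.53 within the high and 0.94 within the low set. The skeletal light chain myl1 had 4 probe sets at -0.30 to 0.90, myl3 stood at -1.06 and 0.35, myl4 at -0.62 and 1.21, and the smooth muscle light chain myl9 at 0.27 and 0.75.

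Differences of the 12 troponin probe sets ran from -1.05 to 0.33, with 7 positive. The slow skeletal troponin I gene tnni1 (Xl.24476.1.A1_at) was at 0.08, 0.16 and 0.10 on the salamander arrays against -0.18 to 0.28 on the controls, a difference of 0.10 (SE 0.38, interval -0.73 to 0.93). It was 0.066 without control array 1 and 0.16 without control array 5, and 0.15 within the high and 0.047 within the low set. Its residual SD of 0.15 was matched or undercut by 0.181% of all tested probe sets. A related gene, tnni1.2 (Xl.11074.1.S1_at), was at 0.36, 0.54 and -0.47 against -0.26 to 0.49, a difference of 0.11 (SE 0.42) that was 0.41 without salamander array 3 and -0.09 without salamander array 2. It was 0.28 within the high and -0.37 within the low set.

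The fast skeletal troponin I gene tnni2 had 2 bright probe sets, which ran in the same order on the salamander arrays. Xl.2142.2.S1_a_at was at 0.41, 0.07 and -1.01 against -0.32 to 0.67. Xl.2142.1.S1_x_at was at 0.59, 0.08 and -0.91 against -0.53 to 0.27. In both, salamander array 3 lay below every control and array 1 was the highest of its group. The differences of -0.25 (SE 0.46) and -0.04 (SE 0.45) turned to 0.17 and 0.38 without salamander array 3, and were -0.54 and -0.37 without array 1. They were 0.17 and 0.51 within the high set and -1.09 and -1.0006 within the low. Their deviations from the group means correlated at 0.76 over 9 arrays, the highest of the 62 pairs of probe sets of the same gene and one given as a description. Both identifiers begin with Xl.2142, and the 2 probe sets need not be independent readings. The fast troponin T gene tnnt3 (Xl.3362.1.S1_at) was at 0.36, 0.30 and -0.25 against -0.96 to 0.53, a difference of 0.24 (SE 0.47) that was 0.065 without control array 5 and 0.43 without salamander array 3. It was -0.021 within the high and 0.30 within the low set. Of the troponin probe sets given array by array so far, all but Xl.2142.2.S1_a_at were chosen after their values were seen. Residual SDs of those given so far ran from 0.15 to 0.53. Bright troponin probe sets not given array by array varied more. Their residual SDs were 1.16 (tnnc1 Xl.2228.1.S1_at), 1.41 (tnnc2 Xl.24572.1.S1_a_at) and 1.12 (tnni3 Xl.935.1.S1_at).

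Heart troponin T, tnnt2 (Xl.2953.1.S1_at), stood lowest of the family, at 0.13, -2.70 and -0.90 against -1.72 to 1.29. Salamander array 2 lay below every control and the others within them. The difference was -1.05 (SE 0.82, limma adjusted p = 0.986), -0.28 without salamander array 2 and -1.70 without array 1. It was -0.65 within the high and -1.33 within the low set. The remaining troponins were tnnc1, the calcium-binding subunit of slow and heart muscle, at -0.20 and -0.04, its fast skeletal counterpart tnnc2 at 0.06 and 0.15, and heart troponin I, tnni3, at 0.16 and 0.33.

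**Figure D4:**
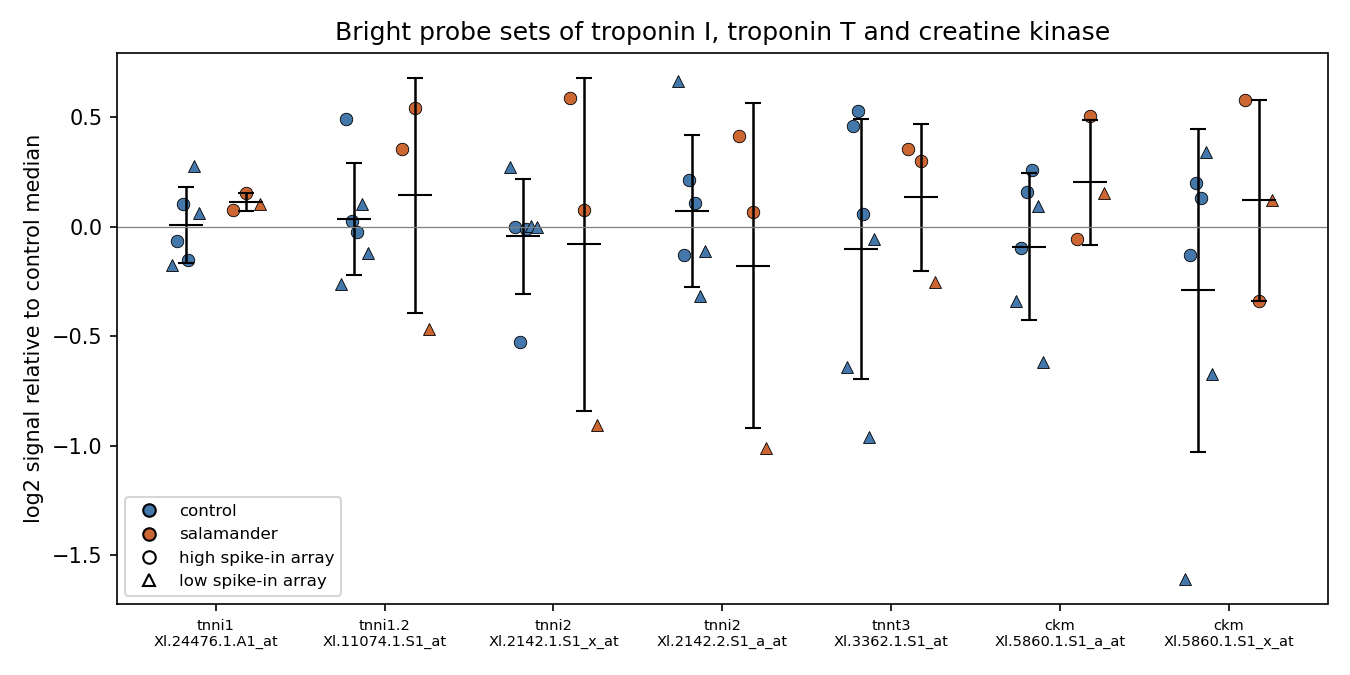
Log2 signal relative to the control median (vertical axis) on the 9 arrays for bright probe sets of tnni1, tnni1.2, tnni2, tnnt3 and ckm. Blue points are controls, orange points salamander arrays, circles high and triangles low spike-in arrays, and black bars the group mean and SD. Bright probe sets of tnni3, tnnc1 and tnnc2, which varied more between replicate arrays, are not drawn. Salamander array 3, the orange triangle, is at -1.01 and -0.91 for tnni2, below every control, and at 0.10 for tnni1.

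Of the 6 tropomyosin probe sets 4 were positive, from -0.42 to 0.69. The muscle tropomyosin tpm2 (Xl.938.1.S1_at) was at -0.27, 1.68 and 1.91 against -0.97 to 1.84, a difference of 0.69 (SE 0.73) that was 1.38 without salamander array 1 and 0.29 without array 3. It was 0.48 within the high and 1.30 within the low set. The tropomyosin tpm3 (Xl.5938.1.S1_at), made in slow muscle and in other cells, was at 0.63, 1.02 and 0.43 against -0.37 to 0.48, a difference of 0.67 (SE 0.41, limma adjusted p = 0.983). Salamander arrays 1 and 2 were above every control, and the difference was 0.76 within the high and 0.46 within the low set. The second tpm3 probe set stood at -0.42, and tpm1, without a marked value, at 0.30.

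Alpha-actinins had 3 positive of 6 probe sets. The fast muscle actinin actn3 (Xl.24315.1.A1_at) was at 1.17, 1.59 and 1.74 against -0.96 to 2.66, a difference of 1.16 (SE 0.75). The salamander values were close to each other and below the highest control, and the difference was 2.03 within the high and 0.42 within the low set. The non-muscle actinin actn4 (Xl.24722.1.S1_at) was at -1.84, -0.78 and -0.65 against -2.09 to 1.25, a difference of -0.89 (SE 0.66). It was -0.51 without salamander array 1, and -1.40 within the high and -0.15 within the low set. The muscle actinin actn2 was at -0.03 and 0.26, and actn1 at -0.16 and 0.27.

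Among the calsequestrins, which store calcium in the sarcoplasmic reticulum, the heart form casq2 (Xl.15700.1.S1_at) was at 1.94, 1.63 and 0.90 on the salamander arrays against -0.95 to 2.21. The difference was 1.27 (SE 0.64, limma adjusted p = 0.955), and control array 5 alone lay above the salamander arrays. It was 1.72 within the high and 0.52 within the low set. The skeletal form casq1 (Xl.23399.1.S1_at) was at -1.18, 0.20 and 0.45 against -2.39 to 1.29, a difference of 0.07 (SE 0.82) that was 0.57 without salamander array 1 and -0.36 without control array 6. It was -0.0375 within the high and 0.49 within the low set.

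All 5 creatine kinase probe sets, 3 of ckm and 2 of ckmt1b, had positive differences, with a median of 0.41, and the groups overlapped in each. Of all tested probe sets 50.1% had a positive difference. The ckm probe sets Xl.5860.1.S1_a_at and Xl.5860.1.S1_x_at share a cluster number in their identifiers and need not be independent readings. The muscle enzyme ckm was at -0.05, 0.51 and 0.15 against -0.62 to 0.26 in the probe set Xl.5860.1.S1_a_at, a difference of 0.29 (SE 0.41) that was 0.14 without salamander array 2. In Xl.5860.1.S1_x_at it was at 0.58, -0.34 and 0.12 against -1.61 to 0.34, a difference of 0.41 (SE 0.52) that was 0.15 without control array 1 and 0.64 without salamander array 2. In Xl.8971.1.A1_at, with 6 marked values, it was at 0.40, 1.94 and 0.75 against -1.27 to 1.14, a difference of 1.05 (SE 0.63) that was 0.59 without salamander array 2. Salamander array 2 was thus the highest of its group in 2 of the 3 probe sets and the lowest in the other. Within the high set the 3 differences were 0.12, 0.053 and 1.59, and within the low set 0.44, 0.77 and 0.36. The mitochondrial enzyme ckmt1b (Xl.1620.1.S1_at), without a marked value, was at 0.18, 0.65 and 0.56 against -0.34 to 0.38, a difference of 0.45 (SE 0.40), with 0.28 within the high and 0.66 within the low set, and its second probe set at 0.02.

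Of the 29 keratin probe sets 19 had a negative difference, and they ran from -1.60 to 1.24. The gene krt55 (Xl.73.1.S1_at) had the smallest p of all 92 members. It was at 1.53, 0.88 and 1.41 on the salamander arrays against -0.27 to 0.38 on the controls, and all 3 salamander arrays lay above all controls. The difference was 1.24 (SE 0.40, interval 0.37 to 2.11), or 2.36-fold, with a limma adjusted p of 0.798, and stayed at 1.11 to 1.44 when 1 array was left out. It was 1.16 within the high and 1.39 within the low set. Values were marked as weak on 4 controls and 1 salamander array. Its residual SD of 0.27 was the lowest of the 29 keratin probe sets, whose median was 1.096.

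On the lower side, krt57 (Xl.1103.1.S1_at) was at -1.25, -1.14 and -1.82 against -1.24 to 2.41, a difference of -1.60 (SE 0.71, limma adjusted p = 0.945), with 6 marked values. Salamander array 2 lay within the controls and the other salamander arrays below them, array 1 narrowly, and the difference was -1.36 within the high and -2.05 within the low set. The krt70 probe set Xl.6133.2.A1_x_at was at -1.43, -1.64 and -1.72 against -1.61 to 0.61, a difference of -1.36 (SE 0.53, limma adjusted p = 0.882), and salamander arrays 2 and 3 lay below every control. It was -0.68 within the high and -2.10 within the low set. The other 4 probe sets of krt70 stood at -0.41, -0.01, 0.44 and 0.51. The gene krt17 (Xl.17663.1.A1_at), a keratin of skin appendages in mammals, was at -0.54, -0.32 and -2.69 against -0.21 to 0.13, and all 3 salamander arrays lay below all controls. Its difference was -1.16 (SE 0.54, limma adjusted p = 0.945) with all arrays and -0.41 without salamander array 3, and -0.40 within the high and -2.67 within the low set.

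**Figure D5:**
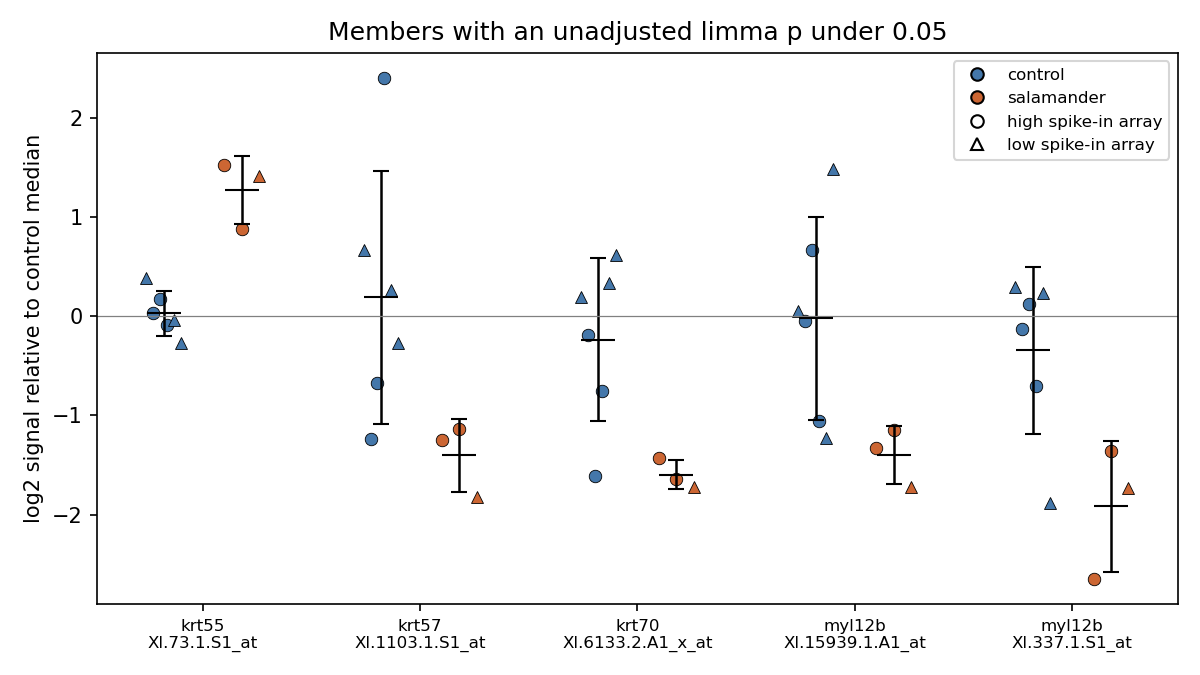
Log2 signal relative to the control median (vertical axis) on the 9 arrays for the 5 members with an unadjusted limma p under 0.05; blue points are controls, orange points salamander arrays, circles high and triangles low spike-in arrays, and black bars the group mean and SD. For krt55 the salamander arrays, at 0.88 to 1.53, lie above all controls, and in the other 4 probe sets the groups overlap.

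The simple epithelial keratins pair in the same filament, and both had negative differences. The probe sets of krt8.1 were at -0.26, -1.14 and -0.74 against -1.64 to 0.59 (Xl.2622.1.S1_at, a difference of -0.39, SE 0.56) and at -0.14, -0.23 and -0.75 against -1.12 to 1.65 (Xl.2622.1.S1_x_at, a difference of -0.44, SE 0.66). The salamander values lay within the control range in both. The first was -0.17 without salamander array 2 and -0.65 without control array 2, and -0.28 within the high and -0.50 within the low set. The second was -0.13 without control array 5 and -0.68 without control array 4, and turned from -1.80 within the low set to 0.73 within the high. The probe sets of krt18.1 were at -1.51, -0.77 and -0.24 against -1.86 to 2.17 (Xl.6874.1.S1_at, a difference of -0.91, SE 0.83) and at -2.62, -0.22 and -0.22 against -1.82 to 0.49 (Xl.8910.1.S1_at, a difference of -0.65, SE 0.69). They were -2.28 and -0.93 within the high set and turned to 0.76 and 0.03 within the low. The first was -0.49 without control array 3, and the second 0.15 without salamander array 1 and -1.05 without array 2. Among the other keratins, krt7 and krt19, also of simple epithelia in mammals, had probe sets at -1.50 and 0.01 and at -0.41 and 0.77. The krt12 genes ran from -1.38 to 0.98 in 7 probe sets, krt15.1 stood at 0.64, krt51 at 0.54, krt61 at -0.41, krt62 at 0.98, krt78.6 at -0.22 and krt78.7 at -0.70.

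Probe sets of the same gene differed in direction about as often as not. The L and S homeolog endings of symbols were dropped, so such pairs include L with S probe sets, as for actn1 and tnnc2. Other pairs share a cluster number in their identifiers, as for krt8.1, and need not be independent readings. Of the 26 member genes with more than 1 probe set, 15 had differences of both signs. In the 62 pairs of probe sets of the same member gene, differences had the same sign in 51.6%, and deviations from the group means correlated at a median of -0.02 over the 9 arrays. The corresponding values for all 4219 such pairs on the array were 49.9% and 0.00. With so little agreement between probe sets of 1 gene, and probes made for another frog, whether a value given here reports the transcript it is named for was not tested, which bears on every gene named. Among the 91 pairs of bright striated muscle probe sets the median correlation was 0.00, and among all 26809503 pairs of bright probe sets -0.01. The points of each correlation are the same 9 arrays, and all are given as a description.

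Other genes of the same tissues, taken from lists outside the rule, were set beside the members. Whether brain also makes some of their transcripts was not tested. Of 50 probe sets of other muscle genes (33 of the 64 listed), 3, or 6.0%, had an unadjusted limma p under 0.05 (2 higher, 1 lower) with a median difference of -0.07, and 0 passed after adjustment. Their per-array means were -0.06, -0.02 and -0.22 on the salamander arrays against -0.22 to 0.11, all within the controls. Of 51 probe sets of other skin and epithelium genes (34 of the 54 listed), 2, or 3.92%, had such a p (0 higher, 2 lower) with a median of 0.08, and 0 passed. Their means were -0.25, 0.04 and -0.15 against -0.31 to 0.24, again within the controls. The mean difference of -0.07 was 0.002 within the high and -0.16 within the low set. The mean difference of the other muscle list, -0.05, had the opposite sign to that of the muscle members. It was 0.02 within the high and -0.19 within the low spike-in set, and 0.03 over its bright probe sets. The sign of the mean thus turned with the subset. The median of the 26 bright probe sets of this list was -0.08, with 11 positive and 15 negative, close to that of the whole list. The 51 brain probe sets had 2 with such a p, also 3.92%, both higher. All 3 shares lie near the 5.15% of all tested probe sets. Among the brain genes, ina alone reached an unadjusted limma p under 0.01. It stood at 3.53, 3.22 and 2.42 against -1.07 to 2.20, a difference of 2.68 (SE 0.71, limma adjusted p = 0.734). Its probe set had 3 marked values and so was not bright. Also outside the rule were 3 probe sets with several symbols, of myl1, tpm4 and myl3, at 0.94, 0.75 and 0.60.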

How the data were processed

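RNA of 9 pooled brain samples was measured on 1-colour Affymetrix arrays. Per the submitters' processing notes the authors computed signals with MAS5 (version not given in the sources used here). As deposited, the values are log2 signals centred by probe set on the control median (largest departure 9.5e-07); logarithm base and centring were read from the values, and the scaling between arrays is not given. There were 0 columns of other samples. Centring leaves group differences as they were but takes away the level. The number of arrays limits the precision.

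Groups and replicate numbers came from the sample titles. Differences were tested with limma's lmFit and eBayes (no trend) on 15491 probe sets, leaving out 120 Affymetrix controls, salamander minus control, with Benjamini-Hochberg adjustment and calls at 0.05. The fit was checked on simulated data with large shifts only, and how small a difference it could call was not tested. R 4.3.3, limma 3.58.1, Python 3.11.15, pandas 2.3.3, numpy 2.4.6 and matplotlib 3.10.9 were used. Symbols came from the platform annotation (9304 probe sets with 1 symbol, 195 with several, 5992 tested ones unnamed here). They were put in lower case without homeolog endings.

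A value was marked as weak when it lay more than 0.2 of a step from a whole step of the single-precision rounding of log2 values of 8 or more. Described one by one were the 2 members with the smallest p per family (4 for keratins), all with an unadjusted p under 0.05, and all of acta1, ckm, krt8 and krt18, together 25; a further 5 were chosen after their values were seen. Members and lists were chosen with earlier results of these data known. Alternatives were quantile normalization, array medians at 0, the replicate number or the spike-in set as a block, values within each set, array weights, no variance moderation, genes in place of probe sets, bright probe sets only, other summaries of the group means, and each array left out.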

Additional observations from a re-analysis of the deposited data

Results flagged for a closer look

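In 9 probe sets, 1 of the 6 control arrays lay far from the other 5, by Dixon's test at the 95% level. Among 100 groups of control values examined, 92 of members and 8 of group means, chance gives about 1 in 20, and 0 of the 8 group means were concerned. The largest gaps were in tnnc2 (Xl.24572.1.S1_a_at), where control array 4 stood at -3.91 and the next at -0.07, and in krt12.2 (Xl.22272.1.A1_at), where control array 2 stood at -4.93 and the next at -0.67. Control array 6 stood at 1.77 for myl1 (Xl.1056.1.S1_a_at), at 2.63 for myh11 (Xl.1554.1.A1_at) and at -2.15 for myl9 (Xl.20555.2.S1_at). Control array 1 stood at -1.71 for myh8 (Xl.1464.1.S1_at), control array 3 at -0.53 for tnni2 (Xl.2142.1.S1_x_at), control array 5 at 2.18 for tpm2 (Xl.930.1.A1_at) and control array 2 at -2.54 for tnni3 (Xl.935.1.S1_at). The 9 cases fell on 6 different control arrays.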

How the results depend on the processing

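The fit over all probe sets gave 0 calls in each of the 20 settings run, the unadjusted p under 0.05 being reached by 798 probe sets and by 475 after quantile normalization; the salamander arrays, which are not in the centring median, spread more over probe sets (SD 1.14 to 1.16) than the controls (0.942 to 0.995). The replicate number as a block gave 0 calls and 828 such probe sets, with a muscle mean difference of 0.13 and a keratin one of -0.13. The labels name no pairs, and the replicate numbers were not taken as pairs. Deviations of same-numbered arrays from their group means correlated at 0.0059, 0.016 and -0.0049. Every pair of a control and a salamander array lay near 0, at -0.017 to 0.016, so this measure cannot show whether the numbers mark pairs. The muscle mean difference of 0.10 came to 0.18 with the median over members (0.1768) or with bright members only (0.1785), and ran from 0.07 to 0.12 with 1 array left out; the keratin one ran from -0.33 to -0.16. Of the 30 members described, 21 kept their sign in all 15 alternatives run for single members, which did not include array weights, gene-level values, bright probe sets only or no variance moderation. Leaving out 1 array turned tnni1.2 (-0.091 to 0.41), the tnni2 probe sets (-0.37 to 0.38 and -0.54 to 0.17), casq1 (-0.36 to 0.57) and krt18.1 Xl.8910.1.S1_at (-1.05 to 0.15). Within the high spike-in arrays the tnni2 probe sets stood at 0.51 and 0.17, casq1 at -0.0375, krt8.1 Xl.2622.1.S1_x_at at 0.73 and tnnt3 at -0.021. Within the low ones tnni1.2 stood at -0.37, myh6 Xl.3161.1.A1_at at 0.41 and the krt18.1 probe sets at 0.76 and 0.025. The replicate block turned tnni2 Xl.2142.1.S1_x_at to 0.0037. The cause was not tested. Without ina, added after the data were seen, the brain mean difference was 0.20 in place of 0.25. Weak signals and 3 salamander arrays limit what single members show.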
